A study of Mus musculus with 19 samples.

Results

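The genes described here encode 7 ligands of the epidermal growth factor (EGF) family (Areg, Ereg, Epgn, Btc, Tgfa, Hbegf and Nrg1) and 3 receptors of the Erbb family (Egfr, Erbb2 and Erbb3). They were taken by symbol from a table of 32694 genes measured in mouse colon, and all 10 were present. All 10 also passed the filter for testing, a normalized count of at least 10 in at least 5 of the 19 libraries. Epgn reached that level in 7 libraries and the other members in all 19.

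RNA was measured by poly-A RNA-seq with single-end reads of 75 bases in tissue of mice aged 12 weeks, with 1 library per mouse. Wild-type colon was taken from 3 females and 2 males. Individual colon tumours were taken from 3 females and 4 males in which Villin-Cre had removed 1 allele of Apc, a gene that restrains Wnt signalling (Apc tumours). A second set of single tumours came from 3 females and 4 males in which Villin-Cre had removed 1 allele of Apc and both alleles of Tgif1 and of Tgif2, which encode homeodomain transcriptional repressors (labelled Apc/Tgif tumours). Villin-Cre is a recombinase driven in the intestinal epithelium, so stromal and immune cells of the tumours are not its targets. The labels do not say whether the wild-type mice carried Villin-Cre. The tissue was bulk colon or bulk tumour, in which fewer cells of a type and less RNA per cell cannot be told apart.

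EGF family ligands are made as membrane-anchored precursors, and metalloproteases such as Adam17 and Adam10 release the active growth factor. Areg, Epgn and Tgfa bind Egfr, Ereg, Btc and Hbegf bind Egfr and Erbb4, and Nrg1 binds Erbb3 and Erbb4. Bound receptors form pairs and activate the Ras-ERK and PI3K-Akt relays. Erbb2 has no known ligand and acts as the partner of the other receptors, and Erbb3, whose own kinase activity is weak, relays mainly to PI3K once paired. In the gut these signals drive growth and repair of the crypt epithelium, in which the cells that line the colon are renewed.

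Of the 7 ligand genes, 4 lie next to each other on mouse chromosome 5 (build GRCm38). Epgn occupies chr5:91027464-91035215, Ereg chr5:91074622-91093646 and Areg chr5:91139599-91148432, all on the plus strand, and Btc lies at chr5:91357261-91402994 on the minus strand. The gaps between neighbours were 39.4, 46.0 and 209 kb, no annotated coding gene lay in them, and the whole cluster spanned 376 kb. Tgfa is on chromosome 6, Nrg1 on chromosome 8, Egfr and Erbb2 on chromosome 11 and Erbb3 on chromosome 10. Antisense transcripts are annotated within Ereg (Gm19610), Tgfa (Gm43917), Nrg1 (Gm26578) and Egfr (Egfros), and the coding gene Mien1 overlaps Erbb2 on the other strand. Since no source used here says whether the counting used strand, reads of these genes and of their antisense partners cannot be told apart.

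Promoters of the cluster genes are shown because several of the values described below concern these neighbours. RefSeq promoters (build GRCm38.p6, 250 bases before to 50 bases after the start of the gene) were matched for 6 of the 10 members, namely Epgn, Areg, Btc, Tgfa, Egfr and Erbb2. The sequences run 5′ to 3′ on the strand of the gene, at chr5:91027267-91027566 for Epgn, chr5:91139349-91139648 for Areg and chr5:91402945-91403244 for Btc, and capitals mark matches of the motifs searched.
Epgn: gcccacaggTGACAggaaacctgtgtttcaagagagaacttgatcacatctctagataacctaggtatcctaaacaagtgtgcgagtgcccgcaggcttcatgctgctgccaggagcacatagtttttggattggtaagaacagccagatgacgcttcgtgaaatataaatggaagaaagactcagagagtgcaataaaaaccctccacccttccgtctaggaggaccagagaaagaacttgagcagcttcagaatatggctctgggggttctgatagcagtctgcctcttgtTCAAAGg
Areg: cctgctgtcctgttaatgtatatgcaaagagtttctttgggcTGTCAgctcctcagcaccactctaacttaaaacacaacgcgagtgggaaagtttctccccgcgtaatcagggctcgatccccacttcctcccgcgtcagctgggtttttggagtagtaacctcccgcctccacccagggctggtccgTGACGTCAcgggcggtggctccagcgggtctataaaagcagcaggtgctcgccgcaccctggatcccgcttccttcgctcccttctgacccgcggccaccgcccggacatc
Btc: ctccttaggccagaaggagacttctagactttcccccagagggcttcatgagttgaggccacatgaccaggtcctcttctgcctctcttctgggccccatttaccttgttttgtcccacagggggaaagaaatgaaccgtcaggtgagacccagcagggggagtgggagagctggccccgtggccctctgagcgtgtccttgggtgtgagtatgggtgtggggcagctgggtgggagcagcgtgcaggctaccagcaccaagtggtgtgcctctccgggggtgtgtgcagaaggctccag
Both strands were searched for the cAMP response element TGACGTCA, for the AP-1 site TGANTCA, for the core TGTCA, read as TGACA on the other strand, that Tgif proteins bind, and for the Tcf/Lef core CTTTGA, read as TCAAAG on the other strand. Areg held 1 TGACGTCA, from -61 to -54 relative to the start, and this element occurred in 1.79% of 32851 RefSeq promoters of the same length. Areg also held TGTCA from -208 to -204, Epgn held TGACA from -241 to -237 and Egfr held TGACA from -69 to -65, and this core occurred in 45.4% of promoters. Epgn held TCAAAG from 43 to 48 after the start, a core found in 16% of promoters, and the AP-1 site, found in 7.81%, was in none of the 6 windows. No match overlapped another, and the windows of Btc, Tgfa and Erbb2 held none of the 4 motifs. These matches are letters in a window and show no binding.

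The deposited values are normalized counts, a signal per gene that the authors made from counts and a factor per library. Totals ran from 34400000 to 44700000 per library, rounded, which the value of a single read puts at about 28700000 to 49100000 counts. The ribosomal precursor Rn45s was high in 3 libraries, wild-type replicates 2 and 4 and Apc/Tgif replicate 5, and took up to 9.35% of a library. Averages for wild-type colon, Apc and Apc/Tgif tumours were 964, 3815 and 354 for Tgif1 and 161, 642 and 2657 for Tgif2. The Tgif2 level goes against its label, and without knowledge of which exons were removed a whole-gene value cannot check the deletion. The epithelial markers Epcam and Cdh1 were abundant in all libraries, and none of the 8 epithelium genes listed was at 0 throughout a group. Hoxb13, a homeobox gene of the distal colon, lay at 13466 to 16616 in wild-type colon, but only at 1088 to 9351 in the Apc and 6540 to 8720 in the Apc/Tgif tumours.

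In Apc tumours against wild-type colon, 6 of the 7 ligand genes and Egfr were higher, and Erbb2 was lower. Thus 7 of 10 members were called higher and 1 lower by limma at an adjusted p under 0.05, where 23.9% of the 18445 genes tested were called higher and 25.2% lower. The median log2 fold change was 0.93 over the members and -0.0119 over all genes tested. Groups did not overlap for Ereg, Hbegf, Btc, Tgfa and Nrg1, against 29.4% of all genes. In Apc/Tgif tumours against wild-type colon, 4 ligand genes were higher, namely Hbegf, Btc, Tgfa and Nrg1, where 24.8% of genes were called higher and 25.5% lower. No member was called lower there by limma, also at an unadjusted p under 0.05 (0 of 10). The groups did not overlap for Hbegf, Btc and Tgfa, against 30.6% of all genes, and the median was 0.23 over the members and 0.0016 over all genes. The 5 wild-type libraries are shared by these comparisons. Between the tumours, Areg, Ereg and Nrg1 were lower in Apc/Tgif than in Apc tumours, where 8.76% of genes were called lower and 7.88% higher. No member was called higher by limma, and 1 (Tgfa) was higher at an unadjusted p under 0.05. Among males alone (4 tumours of each genotype) Areg, Ereg and Nrg1 were at -1.45, -1.19 and -0.73 and missed the threshold (limma adjusted p of 0.0651, 0.121 and 0.0571). Among females alone Areg and Ereg stayed called and Nrg1 did not (-0.73, adjusted p = 0.130). All 10 members overlapped between the tumour groups, whereas 4.07% of all genes did not, and the medians were -0.36 and -0.0135.

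**Figure D1:**
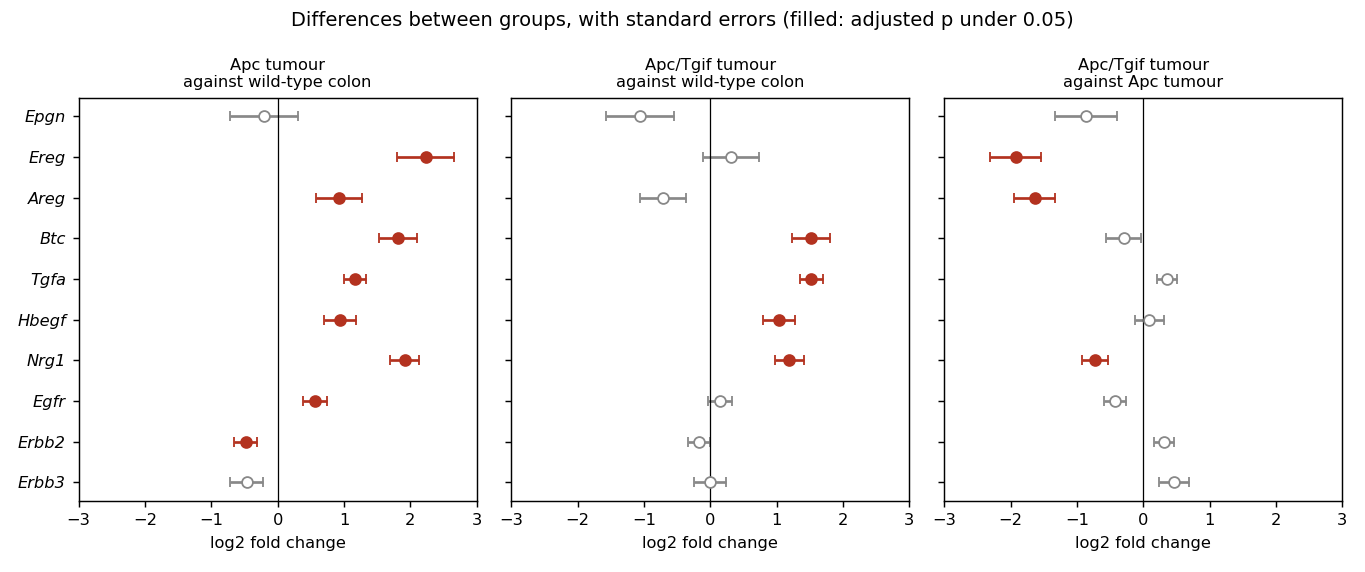
Log2 fold change on the log2(normalized count + 1) scale (x axis) of each member (y axis) in the 3 comparisons, with bars of 1 standard error and filled points for an adjusted p under 0.05 (limma, 5 wild-type, 7 Apc and 7 Apc/Tgif libraries). Ereg stands at 2.23 in Apc tumours and 0.31 in Apc/Tgif tumours against wild-type colon, whereas Tgfa stands at 1.17 and 1.52.

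Ereg encodes epiregulin. Its normalized counts in the 5 wild-type libraries were 322, 468, 588, 407 and 455. Apc tumours ran from 711 through a median of 2077 to 4710, and Apc/Tgif tumours from 254 through 659 to 724. All 7 Apc tumours thus lay above every wild-type library, while Apc/Tgif tumours overlapped the wild type and only their highest library reached above the lowest Apc tumour. Ereg was 4.70-fold higher in Apc tumours than in wild-type colon (log2 fold change 2.23 ± 0.427 SE, limma adjusted p = 0.000268). In Apc/Tgif against Apc tumours it fell by 1.92 on the log2 scale (SE 0.386, adjusted p = 0.00207), and against wild-type colon the difference of 0.31 was not called (adjusted p = 0.568). Apc tumours varied widely among themselves, with a mean of 2581 ± 1682 (SD, n = 7), compared with 569 ± 168 (SD, n = 7) for Apc/Tgif.

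Areg encodes amphiregulin, a ligand of Egfr alone. The wild-type libraries held 315, 532, 823, 1400 and 407 normalized counts. In Apc tumours the values ran from 725 through a median of 1010 to 2506, and Apc/Tgif tumours from 251 through 389 to 782. Apc/Tgif tumours were below the Apc tumours in all but 1 library, replicate 6, which stood above the lowest Apc tumour. Areg fell by 1.64 on the log2 scale in Apc/Tgif against Apc tumours (3.11-fold, SE 0.313, limma adjusted p = 0.00137). The Apc tumours were 1.89-fold above wild-type colon (0.92 ± 0.346 SE, adjusted p = 0.0337), and wild-type replicates 3 and 4 lay within the range of the Apc tumours. That call was lost without wild-type replicate 1, 2 or 5 or Apc replicate 1, 2, 4 or 7, with values of 0.65 to 0.93 and adjusted p up to 0.150. It was also lost in males alone (0.83, adjusted p = 0.316) and with the 2 groups fitted alone (0.94, adjusted p = 0.0632). The difference of -0.72 between Apc/Tgif tumours and wild-type colon was not called (adjusted p = 0.0940). It was called without wild-type replicate 5 (-0.99, adjusted p = 0.0291) and with Hoxb13 as a covariate (-1.16, adjusted p = 0.00462).

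Btc encodes betacellulin and lies at the other end of the cluster. Its wild-type values were close together, at 348, 304, 343, 291 and 340 normalized counts. Among the Apc tumours they ran from 480 through a median of 1448 to 1834, and Apc/Tgif tumours from 740 through 939 to 1219. Every tumour of both genotypes exceeded every wild-type library. Btc was 3.52-fold higher in Apc tumours (1.82 ± 0.287 SE, limma adjusted p = 3.63e-05) and 2.87-fold higher in Apc/Tgif tumours (1.52 ± 0.287 SE, adjusted p = 0.000201) than in wild-type colon. Between the tumours the difference was -0.30 and was not called (adjusted p = 0.496). In females alone Btc was called lower (-0.88, adjusted p = 0.00714), at 1307 to 1834 in Apc and 753 to 939 in Apc/Tgif tumours. Males alone gave 0.14 (adjusted p = 0.840). Over both sexes together, the neighbours Areg and Ereg were thus called between the tumour genotypes and Btc was not. Whether the genes differed from each other in this respect was not tested.

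Epgn, the gene of epigen, was near the lower limit of measurement. The wild-type libraries held 10.2, 10.1, 10.2, 8.69 and 11.1 normalized counts. The Apc tumours spanned 2.18 through a median of 7.40 to 21.7, and Apc/Tgif tumours from 1.35 through 5.33 to 9.46. All groups overlapped, and no comparison was called in the fit of all 19 libraries (-0.21, -1.07 and -0.86, with limma adjusted p of 0.765, 0.0915 and 0.232). Apc/Tgif tumours were called lower than wild-type colon with the 2 groups fitted alone (-1.24, adjusted p = 0.0100) and in females alone (-1.96, adjusted p = 0.00200). Against Apc tumours they were called lower in females alone (-2.82, adjusted p = 0.00154) but not in males alone (0.61, adjusted p = 0.343). Values this low rest on roughly as many reads as the normalized count states, and the fold change is understated by the pseudocount of 1.

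**Figure D2:**
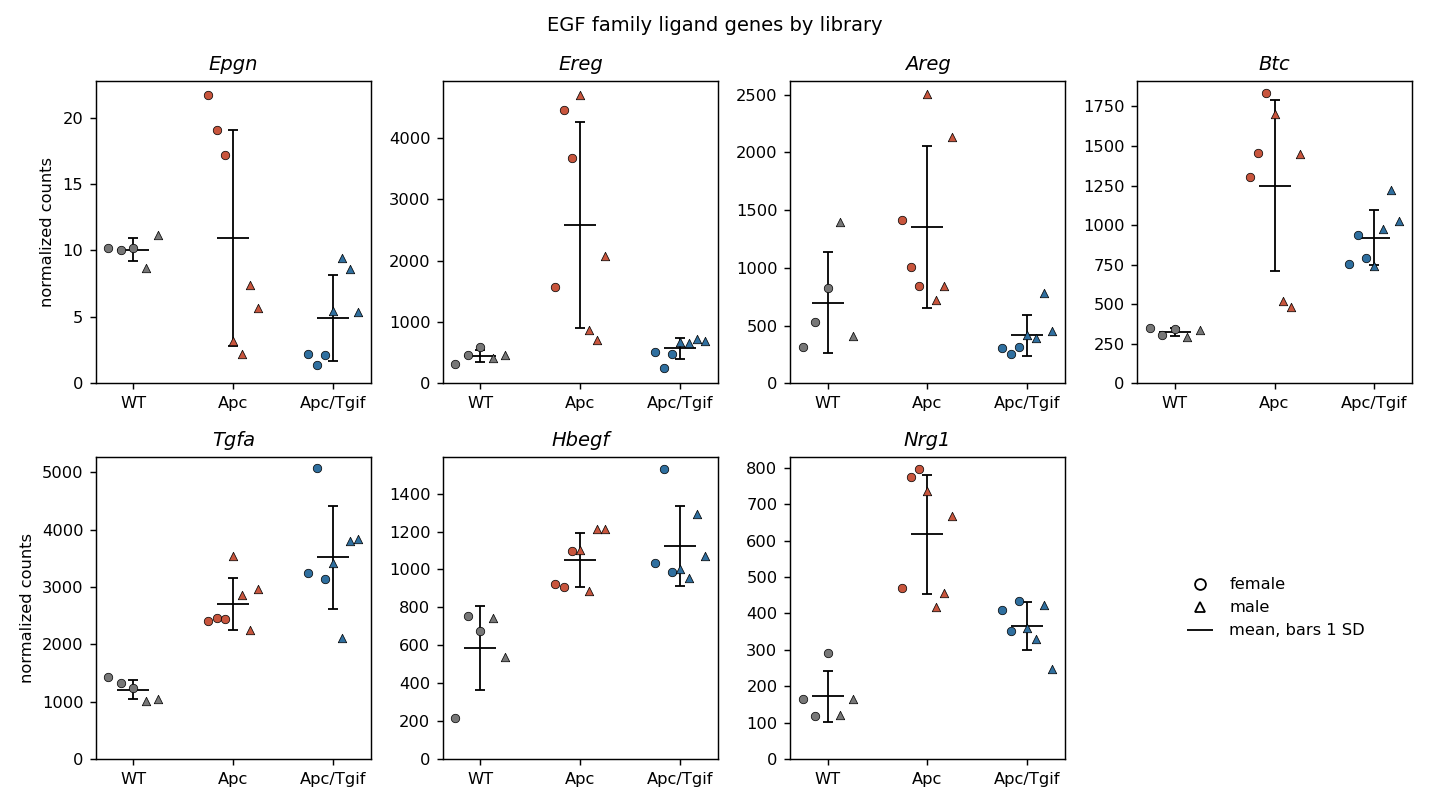
Normalized counts (y axis, from 0) of the 7 ligand genes in each library of wild-type colon (WT, n = 5), Apc tumours (n = 7) and Apc/Tgif tumours (n = 7), with circles for females, triangles for males, a line at the mean and bars of 1 SD. Ereg reaches 4710 in an Apc tumour and at most 724 in Apc/Tgif tumours, whereas Tgfa lies between 2108 and 5068 in Apc/Tgif tumours, above all wild-type libraries.

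Tgfa encodes transforming growth factor alpha, another ligand of Egfr. The wild-type libraries held 1423, 1318, 1243, 1018 and 1049 normalized counts. Across the Apc tumours values ran from 2253 through a median of 2463 to 3534, and Apc/Tgif tumours from 2108 through 3415 to 5068. Every tumour lay above every wild-type library. The gene was 2.25-fold higher in Apc tumours (1.17 ± 0.168 SE, limma adjusted p = 1.25e-05) and 2.87-fold higher in Apc/Tgif tumours (1.52 ± 0.168 SE, adjusted p = 3.95e-07). Between the tumour genotypes the difference was 0.35 and was not called (adjusted p = 0.127), but it was called without Apc/Tgif replicate 5 (0.47, adjusted p = 0.0183), one of the 3 libraries high in Rn45s.

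Hbegf, on chromosome 18, encodes heparin-binding EGF-like growth factor, which many cells induce on growth factor or stress signals. The wild-type libraries held 215, 753, 674, 745 and 540 normalized counts, of which the lowest was replicate 1. Apc tumours ran from 885 through a median of 1099 to 1212, and Apc/Tgif tumours from 957 through 1035 to 1529. All tumours were above all wild-type libraries, and the 2 tumour groups covered much the same range. Hbegf was 1.91-fold higher in Apc tumours (0.94 ± 0.239 SE, limma adjusted p = 0.00311) and 2.04-fold higher in Apc/Tgif tumours (1.03 ± 0.239 SE, adjusted p = 0.00137), with a difference of 0.09 between the tumours (adjusted p = 0.825). In females alone the difference between Apc tumours and wild-type colon was not called (1.03, adjusted p = 0.0711).

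Nrg1 encodes neuregulin 1, a ligand of Erbb3 and Erbb4 that mesenchymal cells of the gut are known to supply to the epithelium. The wild-type libraries held 166, 118, 291, 121 and 165 normalized counts. In Apc tumours the values ran from 418 through a median of 667 to 796, and Apc/Tgif tumours from 248 through 361 to 435. Apc tumours stood clear of the wild type, and Apc/Tgif tumours lay between, overlapping both. Nrg1 was 3.78-fold higher in Apc tumours (1.92 ± 0.220 SE, limma adjusted p = 8.82e-07) and 2.28-fold higher in Apc/Tgif tumours (1.19 ± 0.220 SE, adjusted p = 0.000165) than in wild-type colon. Between the tumours it fell by 0.73 on the log2 scale (SE 0.199, adjusted p = 0.0160). This difference was not called in females alone (-0.73, adjusted p = 0.130) or in males alone (-0.73, adjusted p = 0.0571). Of the 7 fibroblast genes listed, 2 (Dcn and Col1a1) were lower in Apc/Tgif than in Apc tumours and none was higher, where 8.76% of all genes were lower. Against wild-type colon the list was mixed, with 3 higher and 2 lower in Apc tumours and 2 higher and 2 lower in Apc/Tgif tumours. The list summed to 52654 to 82481 in the wild type, 78120 to 163765 in Apc and 47958 to 96657 in Apc/Tgif tumours, with no marker at 0 throughout a group, and its part in the Nrg1 result was not tested.

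Of the receptors, Egfr, which binds most of the ligands above, held 1581, 1390, 1987, 1257 and 1308 normalized counts in wild-type colon. Among the Apc tumours they ran from 1372 through a median of 2260 to 3001, and Apc/Tgif tumours from 1252 through 1669 to 1864. Apc replicates 1, 4 and 7 stood above every other library, and Apc replicate 6 also exceeded the wild type, whose range the remaining tumours overlapped. Egfr was 1.48-fold higher in Apc tumours than in wild-type colon (0.57 ± 0.183 SE, limma adjusted p = 0.0151). This call was lost without the 3 libraries high in Rn45s (0.46, adjusted p = 0.121) and in females alone (0.32, adjusted p = 0.217). Apc/Tgif tumours did not pass against wild-type colon (0.14, adjusted p = 0.546) or against Apc tumours (-0.43, adjusted p = 0.0874), though the latter passed without Apc replicate 5 (-0.54, adjusted p = 0.0221).

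Erbb2, the ligand-less partner receptor, held 6466, 5287, 5579, 4963 and 6114 normalized counts in wild-type colon. The Apc tumours spanned 2867 through a median of 3770 to 6588, and Apc/Tgif tumours from 4169 through 5149 to 6470. Most Apc tumours lay below the wild type, and replicates 5 and 6 lay within or above its range. Erbb2 fell by 0.48 on the log2 scale in Apc tumours (1.40-fold, SE 0.170, limma adjusted p = 0.0240). The call was lost without wild-type replicate 1 or 5 or Apc replicate 1, 2 or 3 (-0.47 to -0.39, adjusted p up to 0.0651). It was also lost with equal library totals (-0.28), with quantile normalization (-0.40) and when libraries were scaled to the 8 epithelium genes (-0.29). The same held in males alone (-0.15, adjusted p = 0.607) and with Hoxb13 as a covariate (-0.27, adjusted p = 0.435). In Apc/Tgif tumours the differences of -0.17 from wild-type colon and 0.31 from Apc tumours were not called (adjusted p of 0.426 and 0.184). The latter was called without Apc replicate 6 (0.42, adjusted p = 0.0394) and in females alone (0.84, adjusted p = 0.00352).

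Erbb3, the receptor of Nrg1, held 6683, 5955, 5392, 3249 and 5664 normalized counts in wild-type colon. Across the Apc tumours values ran from 2810 through a median of 3327 to 6196, and Apc/Tgif tumours from 3204 through 5090 to 9385. All groups overlapped, with wild-type replicate 4 low and Apc/Tgif replicate 2 high. No comparison was called (-0.47, -0.0075 and 0.46, with limma adjusted p of 0.123, 0.982 and 0.177). The lower level in Apc tumours than in wild-type colon did pass without wild-type replicate 4 (-0.67, adjusted p = 0.0370) or without Apc replicate 6 (-0.59, adjusted p = 0.0424).

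**Figure D3:**
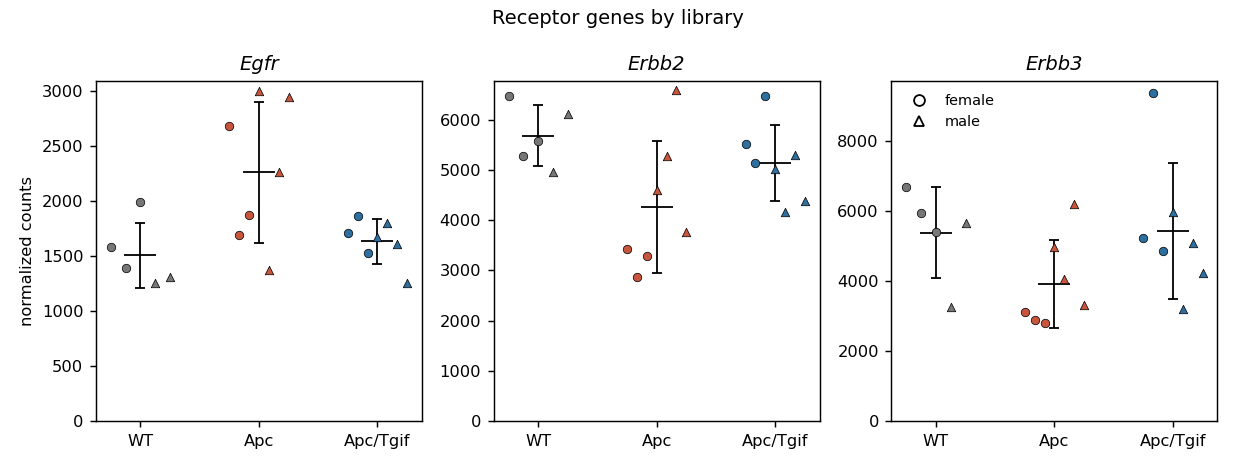
Normalized counts (y axis, from 0) of the 3 receptor genes in each library of wild-type colon (WT, n = 5), Apc tumours (n = 7) and Apc/Tgif tumours (n = 7), with circles for females, triangles for males, a line at the mean and bars of 1 SD. The 3 female Apc tumours are the lowest of their group for Erbb3, at 2810 to 3126, and lie at 2867 to 3433 for Erbb2.

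Levels of different genes were compared per kilobase of annotated exon. In wild-type colon Areg led the ligands at 572 normalized counts per kb, followed by Tgfa at 186, Hbegf at 121, Ereg at 108, Btc at 71.9, Nrg1 at 16.6 and Epgn at 5.56. Only Hbegf and Ereg overlapped among neighbours in this order. In Apc tumours the order was Areg (1115), Ereg (625.2), Tgfa (416), Btc (276), Hbegf (217), Nrg1 (59.6) and Epgn (6.05). In Apc/Tgif tumours it was Tgfa (541), Areg (343), Hbegf (233), Btc (204), Ereg (138), Nrg1 (35.3) and Epgn (2.72). In both tumour groups each of the leading 5 overlapped its neighbour in the order, although genes further apart could be separate. Overlapping ranges do not compare genes within the same library, and differences between adjacent ranks were not tested. Within single Apc/Tgif tumours Btc exceeded Ereg throughout, and Tgfa exceeded Areg in all but replicate 6. There Areg lay below Hbegf in replicate 2, and Hbegf lay below Btc in replicates 5, 6 and 7. Areg in Apc tumours, at 597 to 2062 per kb, lay above all values of Tgfa (347 to 545), Btc (106 to 406) and Hbegf (183 to 251). Tgfa in Apc/Tgif tumours, at 325 to 781 per kb, lay above all values of Hbegf, Btc and Ereg, which reached at most 316, 270 and 175. Erbb2 and Erbb3 were the most abundant receptors in every group and overlapped each other in range, and Egfr stood below both. Within single libraries Erbb2 exceeded Erbb3 per kb throughout, except in Apc/Tgif replicates 2 and 4. Per kb, Erbb2 averaged 1091, 818 and 987 for the wild type, Apc and Apc/Tgif tumours, Erbb3 896, 650.2 and 903, and Egfr 133, 199.6 and 144.

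As a share of the summed ligand level per kb, Areg averaged 49.2% for the wild type, 40.2% for Apc and 22.5% for Apc/Tgif tumours. Ereg averaged 10.7%, 21.5% and 9.38% in the same order. Tgfa averaged 19.3%, 16.8% and 36.2%, and Hbegf 11.2%, 8.92% and 15.6%. The larger share of Tgfa in Apc/Tgif tumours goes with the lower Areg and Ereg, since shares sum to a fixed total. Tgfa itself also averaged more per kb there, 541 against 416 in Apc tumours, a difference that was not called between the tumours. The summed level itself averaged 1082 ± 378 (SD, n = 5) for the wild type, 2715 ± 993 (SD, n = 7) for Apc and 1496 ± 263 (SD, n = 7) for Apc/Tgif tumours. These shares are a description and were not tested.

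**Figure D4:**
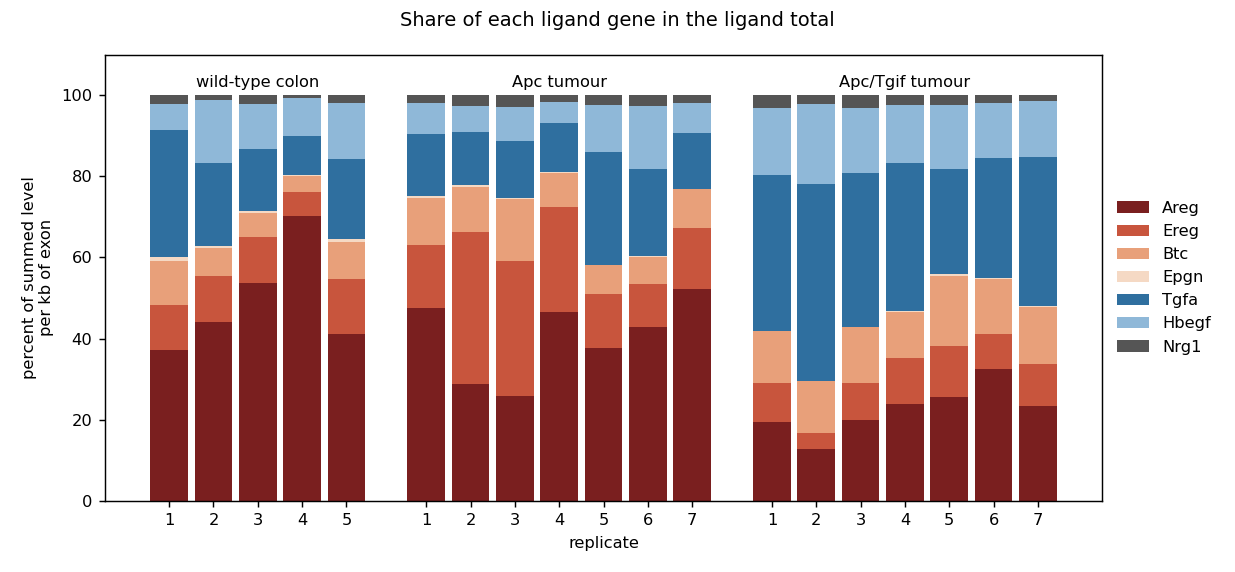
Share of each ligand gene (stacked bars, percent of the summed normalized count per kb of exon, y axis) in every library (x axis, replicate number within wild-type colon, Apc tumour and Apc/Tgif tumour). Areg takes 12.9% to 32.4% in Apc/Tgif tumours and 25.9% to 52.3% in Apc tumours, while Tgfa takes 25.9% to 48.6% and 12.3% to 27.7%.

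Of the 5 family genes outside the 10, Egf, Nrg2 and Nrg4 were tested. Egf, the founding ligand, averaged 114 ± 38.0 (SD, n = 5) for the wild type, 63.8 ± 31.9 (SD, n = 7) for Apc and 84.1 ± 37.0 (SD, n = 7) for Apc/Tgif tumours, and was lower in Apc tumours (-0.93, limma adjusted p = 0.0469). That call was lost when any of 10 of the 19 libraries was left out (-0.97 to -0.69 with the call lost, adjusted p up to 0.125). Nrg2, a neuregulin, averaged 42.4, 4.45 and 17.7, and was lower in Apc tumours (-2.88, adjusted p = 0.000387) and in Apc/Tgif tumours (-1.41, adjusted p = 0.0487) than in wild-type colon. Without wild-type replicate 2, the highest library, the latter was -1.01 (adjusted p = 0.156), and it was lost when any of 15 of the 19 libraries was left out. Nrg4 averaged 56.1, 69.4 and 64.2 and was not called in any comparison (adjusted p of 0.176, 0.312 and 0.814). Nrg3 and Erbb4 did not pass the filter. Nrg3 lay at 5.05 to 18.9 in wild-type colon and at most at 1.90 and 2.68 in the Apc and Apc/Tgif tumours, and Erbb4 reached 2.24, 31.4 and 2.85 at most in the 3 groups.

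Beyond ligands and receptors, 57 genes of the pathway were listed by role, the 5 above included, and 55 were tested. In Apc tumours 17 were higher and 12 lower than in wild-type colon, in Apc/Tgif tumours 23 and 9, and between the tumours 6 were higher and 4 lower in Apc/Tgif tumours. The median log2 fold changes were 0.09, 0.21 and 0.03, and the shares of all genes called were 49.1%, 50.3% and 16.6% in either direction. Counts of pathway genes called, 29, 32 and 10 of 55, were near those shares.

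Among the 4 genes of ligand release, Adam10, a metalloprotease that frees Btc and Egf, was 2.17-fold higher in Apc tumours (1.12, limma adjusted p = 2.74e-06) and 2.21-fold higher in Apc/Tgif tumours (1.14, adjusted p = 1.52e-06). It averaged 6344 ± 700 (SD, n = 5) for the wild type, 13816 ± 2297 (SD, n = 7) for Apc and 14068 ± 2522 (SD, n = 7) for Apc/Tgif tumours. Rhbdf2, which carries Adam17 to the cell surface, was also higher in both (0.87 and 0.67, adjusted p of 8.56e-05 and 0.000922). Its relative Rhbdf1 was called higher in Apc/Tgif tumours (0.61, adjusted p = 0.0284), a call lost when any of 5 libraries was left out (0.40 to 0.59 there). In males alone Rhbdf2 and Rhbdf1 were at 0.44 and 0.15 in Apc/Tgif tumours and were not called (adjusted p of 0.0756 and 0.564). None of the 4 was called between the tumours by limma, nor at an unadjusted p under 0.05 (0 of 4).

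Among 10 genes that restrain the receptors, 1 was higher and 3 lower in Apc tumours, and 1 higher and 2 lower in Apc/Tgif tumours, against wild-type colon. Lrig3 and Lrig1 encode membrane proteins, of which Lrig1 promotes breakdown of Erbb receptors and marks crypt stem cells. Lrig3 fell by 1.91 and 2.37 on the log2 scale in Apc and Apc/Tgif tumours (limma adjusted p of 3.42e-05 and 2.18e-06). Lrig1 averaged 5520 ± 477 (SD, n = 5) for the wild type, 3398 ± 951 (SD, n = 7) for Apc and 5395 ± 1672 (SD, n = 7) for Apc/Tgif tumours. It fell by 0.76 in Apc tumours (adjusted p = 0.00370) and was 0.67 higher in Apc/Tgif than in Apc tumours (adjusted p = 0.0148). The former was not called in males alone (-0.62, adjusted p = 0.131), nor the latter in either sex alone (0.68 in females and 0.66 in males, adjusted p of 0.0756 and 0.0823). Ptprj, a receptor phosphatase, fell by 0.93 in Apc/Tgif tumours (adjusted p = 0.00126), but was at -0.45 in males alone (adjusted p = 0.265). Socs4 (0.58, adjusted p = 0.0286) and the ubiquitin ligase Cblb in Apc tumours (0.54, adjusted p = 0.0356) were called higher, and these calls were lost when any of 5 and of 7 libraries, respectively, was left out.

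Of 15 adaptors and Ras-ERK kinases, 4 were higher and 3 lower in Apc tumours and 7 higher and 2 lower in Apc/Tgif tumours than in wild-type colon. Of all genes, 49.1% and 50.3% were called in either direction in these comparisons, so the counts are near those shares. Map2k1, the kinase MEK1, averaged 8974 ± 990 (SD, n = 5) for the wild type, 4816 ± 912 (SD, n = 7) for Apc and 3051 ± 263 (SD, n = 7) for Apc/Tgif tumours. It was called lower in all 3 comparisons (-0.94, -1.58 and -0.64, limma adjusted p of 2.54e-06, 2.82e-09 and 0.000419), and no library of one group reached the range of another. In females alone its difference between the tumours was -0.32 and was not called (adjusted p = 0.0679). Nras, a Ras GTPase, was higher in both tumours (0.93 and 0.88, adjusted p of 1.09e-05 and 1.70e-05). Gab1, a docking protein that links receptors to PI3K, was 1.20 higher in Apc/Tgif tumours than in wild-type colon (adjusted p = 6.02e-06) and 0.76 higher than in Apc tumours (adjusted p = 0.00173). Mapk3 (ERK1) was 0.34 higher in Apc/Tgif than in Apc tumours (adjusted p = 0.0218), a call lost without Apc replicate 2 or 3 (0.29 and 0.28). In the PI3K-Akt relay, Akt2 was higher in Apc and Apc/Tgif tumours (0.75 and 1.00, adjusted p of 7.73e-06 and 1.77e-07), as was Akt1 (0.55 and 0.69, adjusted p of 0.000277 and 1.91e-05). Pik3r1, a regulatory subunit, fell by 0.53 in Apc tumours (adjusted p = 0.00282), its relative Pik3r2 was 0.52 higher in Apc/Tgif tumours (adjusted p = 0.00244), and Pdpk1, the kinase that activates Akt, was 0.46 higher in Apc/Tgif than in Apc tumours (adjusted p = 0.00833). Pik3r1 was no longer called with equal library totals (-0.32), with epithelium scaling (-0.34), with Hoxb13 as a covariate (-0.49) or in males alone (-0.23), where adjusted p ran from 0.0548 to 0.363. Pdpk1 was no longer called with epithelium scaling (0.44, adjusted p = 0.107), with Hoxb13 as a covariate (0.43, adjusted p = 0.0585) or in females alone (0.25, adjusted p = 0.166).

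Of 15 feedback and target genes of ERK, 7 were higher and 2 lower in Apc tumours, and 8 higher and 4 lower in Apc/Tgif tumours. Of all genes, 23.9% were called higher and 25.2% lower in Apc tumours, and 24.8% and 25.5% in Apc/Tgif tumours. Ier3, an immediate early gene, averaged 283 ± 86.1 (SD, n = 5) for the wild type, 4163 ± 1193 (SD, n = 7) for Apc and 3088 ± 1141 (SD, n = 7) for Apc/Tgif tumours, 14.2-fold and 10.3-fold higher (limma adjusted p of 5.86e-10 and 2.29e-09). Dusp4, a phosphatase of ERK, was 8.13-fold and 7.42-fold higher (adjusted p of 2.65e-09 and 3.54e-09), and Phlda1 6.54-fold and 5.20-fold higher (adjusted p of 2.56e-09 and 9.24e-09). Tumours stood clear of wild-type colon for all 3 genes. Between the tumours 3 of the 15 were called, all lower in Apc/Tgif tumours, where 8.76% of all genes were called lower. Spry4, an inhibitor of receptor signalling, fell by 0.84 on the log2 scale (adjusted p = 0.00150) and Etv4, an ETS factor, by 0.82 (adjusted p = 0.00151). Fosl1, a component of AP-1, fell by 1.29 (adjusted p = 0.0325), a call lost when any of 9 libraries was left out (-1.29 to -1.08 there). None of the 15 was called higher between the tumours by limma, and 2 were at an unadjusted p under 0.05.

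**Figure D5:**
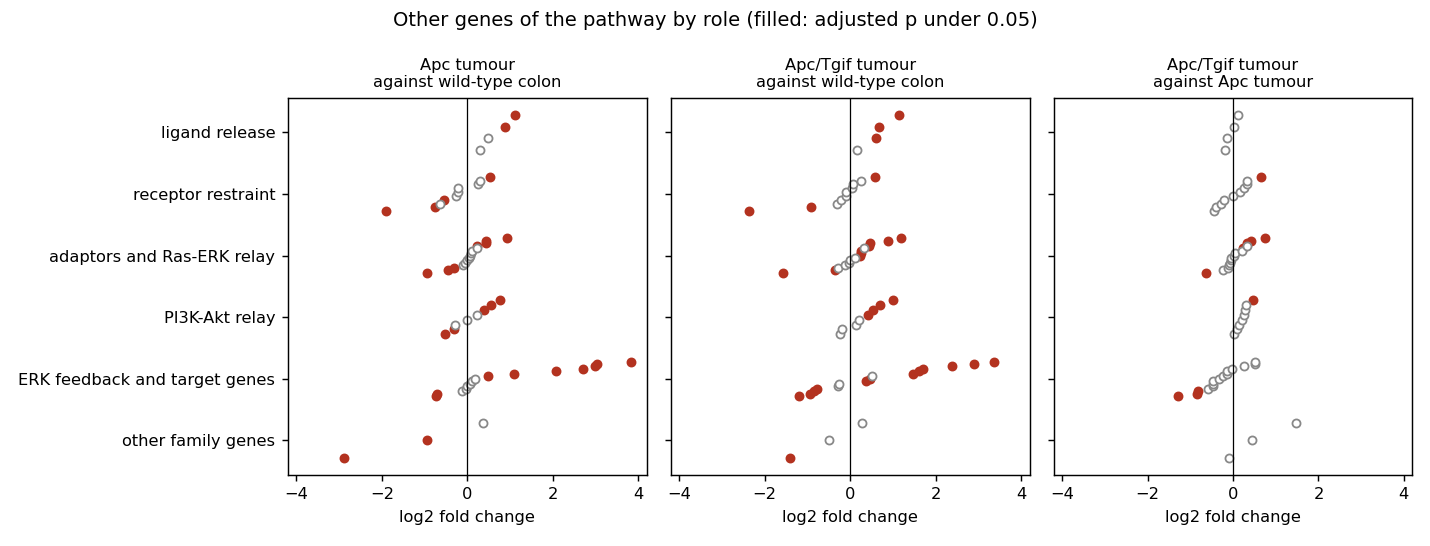
Log2 fold change on the log2(normalized count + 1) scale (x axis) of the pathway genes outside the 10 members, grouped by role (y axis), in the 3 comparisons, with filled points for an adjusted p under 0.05 (limma). Ier3, at 3.83 and 3.36, has the highest value in both comparisons with wild-type colon, and 6 higher and 4 lower genes are filled between the tumours.

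Many markers of other cell types differed between the same groups. Of all genes tested, 49.1% in Apc and 50.3% in Apc/Tgif tumours were called in either direction against wild-type colon, and 16.6% between the tumours. Counts below such as 2 of 4 T cell genes or 1 of 3 endothelium genes against wild-type colon are near or below those shares. All 7 smooth muscle genes listed were lower in both tumours than in wild-type colon, and their sum went from 176727 to 256380 in wild-type colon to 12268 to 20713 for Apc and 9476 to 17273 for Apc/Tgif tumours. All 4 enteric glia genes were lower too, from 475 to 993 in wild-type colon to 42.4 to 101 and 43.6 to 96.3. Of the 8 epithelium genes 4 were lower and 1 higher in each tumour against wild-type colon, and none was called between the tumours. Goblet cell genes were lower in Apc/Tgif than in Apc tumours for 6 of 7, with summed levels of 13235 to 64200 against 59572 to 260038, and 4 of 5 macrophage genes were higher, at 6774 to 10902 against 4635 to 6363. Colonocyte genes were lower for 5 of 5 in both tumours and for 4 of 5 in Apc/Tgif against Apc tumours, with sums of 186190 to 236804 for the wild type, 9636 to 58178 for Apc and 2012 to 30778 for Apc/Tgif tumours. Neutrophil genes were higher for 4 of 4 in both tumours, with sums of 134 to 180, 5260 to 10423 and 1662 to 11387, and 1 was lower in Apc/Tgif than in Apc tumours. Paneth cell genes were higher for 4 of 5 in both tumours, and 1 was lower in Apc/Tgif tumours against wild-type colon and 1 against Apc tumours. Mast cell genes were higher for 3 of 5 in Apc tumours, 4 of 5 in Apc/Tgif tumours and 3 of 5 between the tumours. In each of these comparisons 1 mast cell gene was lower. The mast cell list summed to 1330 to 1711 for the wild type, 613 to 2047 for Apc and 834 to 2484 for Apc/Tgif tumours. All 3 B cell genes, all 3 tuft cell genes, 4 of 5 enteroendocrine genes, 2 of 4 T cell genes and the leukocyte gene Ptprc were lower in both tumours, and 3 of 5 enteroendocrine genes were lower in Apc/Tgif than in Apc tumours. Of 4 enteric neuron genes 3 were lower and 1 higher in Apc tumours and all 4 lower in Apc/Tgif tumours, and 1 of 3 endothelium genes was higher in each tumour. Except for the Paneth cell gene Defa17 in wild-type colon, no marker was at 0 throughout a group. The part of these cell types in the differences of the ligands and receptors was not tested.

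The level of Hoxb13 moved with some members. With log2(Hoxb13 + 1) as a covariate, chosen after the data were seen, 3 members in place of 8 were called in Apc tumours against wild-type colon. Over all 18445 genes tested, 2888 were then called higher and 3198 lower, in place of 4415 and 4639. Hoxb13 in wild-type colon did not overlap that of either tumour group, so this covariate and the group cannot be fully told apart there. Areg went from 0.92 to -0.08 (limma adjusted p = 0.899) and Egfr from 0.57 to -0.04 (adjusted p = 0.910). Ereg went to 1.43 (adjusted p = 0.0696) and Hbegf to 0.88 (adjusted p = 0.0697). The 3 Apc tumours highest in Egfr, replicates 1, 4 and 7, were the 3 lowest in Hoxb13, at 1542, 1088 and 1279. In Apc/Tgif tumours against wild-type colon, Areg became called lower under the same covariate (-1.16, adjusted p = 0.00462). Between the tumours, Nrg1 went to -0.61 (adjusted p = 0.127) under it, while Areg and Ereg stayed called.

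Whether an effect differed between the sexes was tested by subtracting the effect of females from that of males. No member was called in Apc tumours against wild-type colon by limma, where 0.0108% of all genes were called, and 3 members were at an unadjusted p under 0.05. None was called in Apc/Tgif tumours against wild-type colon, where 3.40% of genes were, and 1 member was at an unadjusted p under 0.05. Between the tumours 3 members were called, Epgn, Erbb2 and Erbb3, where 23.6% of all genes were called. Epgn lay at 17.2 to 21.7 in the 3 female and 2.18 to 7.40 in the 4 male Apc tumours, and at 1.35 to 2.19 in the 3 female and 5.33 to 9.46 in the 4 male Apc/Tgif tumours. Sexes did not overlap in either tumour genotype, and their order was opposite. The effect was -2.82 in females and 0.61 in males, a difference of 3.43 (adjusted p = 0.000591).

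Erbb2 lay at 2867 to 3433 in female and 3770 to 6588 in male Apc tumours, and at 5149 to 6470 in female and 4169 to 5291 in male Apc/Tgif tumours. Its effect was 0.84 in females and -0.08 in males, a difference of -0.91 (limma adjusted p = 0.00978). Erbb3 lay at 2810 to 3126 in female and 3327 to 6196 in male Apc tumours, and at 4868 to 9385 and 3204 to 5988 in Apc/Tgif tumours. For both receptors the female Apc tumours lay below all other Apc tumours. The Erbb3 difference was -1.08 (adjusted p = 0.0418), and this call was lost when any of 12 of the 19 libraries was left out, with differences of -1.14 to -0.78 and adjusted p up to 0.121. Scaled to the epithelium genes, the differences were -0.60 for Erbb2 and -0.77 for Erbb3 and neither was called (adjusted p of 0.140 and 0.208).

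Within each tumour genotype, the 4 genes of the chromosome 5 cluster were compared pairwise over 7 libraries, giving 12 pairs tested by exact two-sided permutation. In Apc tumours Ereg and Btc were correlated, with Pearson's r of 0.910 (exact permutation p = 0.00397, adjusted 0.0262) and Spearman's rho of 0.893 (p = 0.0123, adjusted 0.0738). Without the 2 libraries farthest from the median, r was 0.705 over 5 libraries (exact permutation p = 0.208), a number at which even the highest r of the 12 pairs, 0.967, had an adjusted p of 0.200. In Apc/Tgif tumours Ereg and Epgn had r of 0.847 (exact permutation p = 0.00437, adjusted 0.0262), rho of 0.75 (p = 0.0663, adjusted 0.263) and r of 0.852 without the 2 farthest libraries (adjusted p = 0.357 by permutation). Areg and Ereg, the neighbours called between the tumours, had r of 0.461 in Apc tumours (exact permutation p = 0.282, rho 0.679) and 0.771 in Apc/Tgif tumours (exact permutation p = 0.0625, adjusted 0.188). By Spearman's rho, 0.964, the latter pair passed (exact permutation p = 0.00278, adjusted 0.0333), and it was the single pair of the 12 to do so. Female and male tumours were pooled in these pairs, and each sex holds too few tumours for a value of its own. In Apc/Tgif tumours the sexes did not overlap for Ereg, at 254 to 507 in females and 659 to 724 in males. Nor did they for Areg (251 to 311 and 389 to 782) or Epgn (1.35 to 2.19 and 5.33 to 9.46). The permutations did not hold sex fixed, so correlations among these 3 genes there cannot be told apart from the sex difference.

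Genes with the pattern most like each member were sought over the 14 tumour libraries, after the mean of each genotype was taken off, by Pearson's r of log2 values among 12732 genes (12733 for Epgn) with a mean of at least 100. These values are a description over libraries that share depth and tissue composition. Ereg was most like Ptgs2 (r = 0.917), the gene of cyclooxygenase 2, then Prrg4 (0.901) and Tns4 (0.891). Areg was most like Lmo7 (0.898), Ctnnd1 (0.897), the gene of p120 catenin, and Rundc3b (0.880). Btc was most like Trim13 (0.948), and Tgfa like Zfp516 (0.949). Nrg1 was most like Enah (0.824), a regulator of actin, Plau (0.809), the gene of urokinase, and Fgf7 (0.763), a growth factor made by mesenchymal cells. Epgn was most like Hs3st1 (0.949) and Hbegf like Znrf2 (0.878). Among the receptors, Erbb3 was most like Ncoa1 (0.974), Erbb2 like Acss1 (0.950) and Egfr like Arhgap24 (0.894).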

How the data were processed

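RNA-seq of 19 libraries was analysed from 1 table of normalized counts, a signal that the authors deposited per gene and library. The submitters' processing notes name Salmon, DESeq2, GRCm38 and mm10, without versions or annotation. Taking the value of a single read as a step (0.744 to 1.44), 83.1% to 86.7% of low values came within 0.1 step of a whole number, too few to recover whole reads. The planned count test was therefore replaced by its stated substitute, limma 3.58.1 (R 4.3.3) on log2(normalized count + 1), with trend and robust empirical Bayes. All 19 libraries entered 1 fit with group and sex, over the 18445 genes with a value of at least 10 in at least 5 libraries. P-values are two-sided, with Benjamini-Hochberg adjustment over all genes tested and a threshold of 0.05. Every adjusted p of a gene comes from this fit or its stated alternatives. Depth was about 28700000 to 49100000 counts per library, and fold changes of low genes are understated. The steps were tested on simulated data. GENCODE M21 gave exon lengths and positions on GRCm38. Replicates are separate mice or tumours from separate mice, per the labels, and replicate numbers only name libraries. Correlations across genes between replicates were 0.935 to 0.985.

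The members and all lists were chosen with earlier results of these data known. Named were all members, the other family genes, up to 3 called genes with the smallest p per pathway role and comparison, marker genes beside a member, and the 3 genes most like each member, of which some are given; a pathway gene that this rule names is not reported here. Alternatives changed the pseudocount, filter, scaling, sex term, moderation, weights, samples and covariates.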

Additional observations from a re-analysis of the deposited data

Results flagged for a closer look

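In 3 of 45 groups examined (15 family genes in 3 groups), 1 library stood apart from the others, where chance gives about 1 in 20 groups. Areg was 782 in Apc/Tgif replicate 6, and the next highest Apc/Tgif library was at 454. Nrg1 was 291 in wild-type replicate 3, with the next highest at 166, and Nrg2 was 105.7 in wild-type replicate 2, with the next highest at 30.4. Without the Areg and Nrg1 libraries, every call of those 2 genes between groups held. Without the Nrg2 library, the lower Nrg2 of Apc/Tgif tumours against wild-type colon was no longer called (-1.01, limma adjusted p = 0.156).

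The effect of the Tgif genotype among the tumours differed between the sexes, by the test of the difference itself, for 3 members. The difference (males minus females) was 3.43 for Epgn, -0.91 for Erbb2 and -1.08 for Erbb3, where 23.6% of all genes passed the same test. Leaving out 1 library gave 3.19 to 3.66 for Epgn and -1.04 to -0.78 for Erbb2, all called, and -1.25 to -0.78 for Erbb3. Epgn means were 19.3 in female and 4.62 in male Apc tumours, and 1.90 in female and 7.19 in male Apc/Tgif tumours.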

How the results depend on the processing

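Of 447 member values under 15 alternatives, 395 kept their direction and side of the threshold, 17 lost the call, 13 gained one and 22 reversed. When 1 library was left out, 539 of 570 did, 12 lost the call, 6 gained one and 13 reversed. Of the 35 reversals, 2 were of called values, both with Hoxb13 as a covariate, Areg (-0.083) and Egfr (-0.036) in Apc tumours against wild-type colon; the cause was not tested. No call of a named pathway gene reversed, and 101 of 1358 such values lost the call.

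The other reversals were of values that were not called. Erbb3 in Apc/Tgif tumours against wild-type colon gave 0.14 (equal totals), 0.025 (quantile), 0.17 (epithelium scaling), 0.062 (2 groups alone), 0.052 (females), 0.073 (males) and 0.0057 (Hoxb13). In the same comparison Erbb2 was 0.0038 (epithelium scaling), Ereg -0.17 (females) and -0.046 (Hoxb13) and Egfr -0.13 (Hoxb13). In Apc tumours against wild-type colon Epgn was 0.049 (quantile) and 0.86 (females), and Erbb3 0.074 (males). Between the tumours, males alone gave Hbegf -0.028, Btc 0.14, Epgn 0.61, Erbb2 -0.077 and Erbb3 -0.0015, and Hoxb13 gave Btc 0.16. Leaving out 1 library gave -0.21 to 0.095 for Erbb3 in Apc/Tgif tumours against wild-type colon, -0.45 to 0.023 for Epgn in Apc tumours and -0.0043 to 0.14 for Hbegf between the tumours.

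Members called between the tumours went from 3 to 7 in females alone by limma, Areg, Ereg, Btc and Epgn lower and Tgfa, Erbb2 and Erbb3 higher. Nrg1 was not called in females alone (-0.73, adjusted p = 0.130). In males alone 0 were called and 4 were at an unadjusted p under 0.05. Areg, Ereg and Nrg1 were then at -1.45, -1.19 and -0.73 (adjusted p of 0.0651, 0.121 and 0.0571). Of 18445 genes, 2230 were called higher and 2218 lower in females alone, and 1544 and 1658 in males alone. Pathway genes called between the tumours went from 10 to 19 with array weights and 18 in females alone. With Hoxb13, members called in Apc tumours went from 8 to 3, pathway genes from 29 to 16, and all genes between the tumours from 3068 to 1808. All genes called higher and lower in Apc tumours went from 4415 and 4639 to 2888 and 3198 with it. Epithelium scaling left 1 of 3 sex differences, and Epgn was not testable with the stricter filter on low values. Pairs called went from 2 to 1 with Spearman's rho, a different pair (Areg and Ereg in Apc/Tgif tumours). Without the 2 farthest libraries 0 were called, but 5 libraries give no useful test: that pair had r of 0.967 and an exact permutation p of 0.0167, adjusted 0.200. Leaving out 1 library gave 6 to 9, 4 to 5 and 3 to 4 members called in the 3 comparisons, and 0, 0 and 2 to 4 sex differences. Equal totals shifted the median of all genes to 0.19, 0.15 and -0.06 and epithelium scaling to 0.18, 0.18 and -0.03. Genes called higher and lower went from 4415 and 4639, 4576 and 4708, and 1453 and 1615 to 6160 and 3417, 5810 and 3843, and 1080 and 1849 with equal totals, and to 5527 and 3369, 5545 and 3610, and 1045 and 1415 with epithelium scaling. The Hoxb13 and Rn45s alternatives were chosen after seeing the data. No paired analysis was possible because the labels give no replicate numbers shared between groups.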
